A study of Mus musculus with 28 samples.

Results

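Gene expression in kidney endothelial cells was compared between mice with untreated ischemic kidney injury and injured mice given a miR-486-5p mimic. The comparison covered 5 of the 28 samples of the series, 3 untreated and 2 mimic, chosen by their titles, and all 25412 genes of the authors' deposited table for these groups. All mice were male FVB mice, and the cells came from digested kidneys on microbeads against CD31. The untreated group had acute kidney injury by ischemia and no added treatment, and the mimic group had the same injury treated with the mimic. Other endothelial groups of 3 samples each were sham mice without injury, injured mice given a scrambled miRNA and injured mice given exosomes. Every group other than sham carried the injury. The extraction notes give 3 male mice for each group, whereas the series design gives n = 2 for the mimic group. The sources used here give neither the dose, nor the interval after injury, nor the mice's age. The labels mark the untreated and sham samples as re-analysed from an earlier series, so the series of origin and the treatment cannot be told apart when untreated is set against mimic. Untreated against scrambled miRNA or exosomes crosses the same division, and so does mimic against sham, whereas untreated against sham does not. In mimic against sham, here and below, the series of origin, the injury and the treatment cannot be told apart. In the authors' deposited table of untreated against scrambled miRNA, 154 of 20333 genes (0.757%) passed an adjusted p of 0.05.

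MicroRNAs are short RNAs that guide silencing complexes to matching messenger RNAs, most often in the 3 prime untranslated region, and lower their stability or translation. A mimic is a synthetic duplex that supplies the mature strand. miR-486-5p is abundant in red cells and muscle, and Foxo1, a transcription factor restrained by AKT signalling, is among its reported targets. Renal endothelial cells line the glomerular and peritubular capillaries, and ischemia followed by reperfusion damages them along with the adjoining tubules.

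The per-sample files used here were those of the mimic, scrambled-miRNA and exosome libraries, with 8273783 to 24118917 assigned reads. Untreated and sham samples were read only through the authors' comparison tables, so their values are folds with no level per sample, and their depth is unknown here. TPM values are levels per transcript length and library total, summed over the transcripts of a gene. CD31 itself, Pecam1, stood at 47.7 and 70.6 TPM in the mimic libraries and at 43.3, 69.5 and 40.1 TPM in the scrambled libraries. The 28 endothelial identity markers together held 1524 and 1851 TPM in the mimic libraries. Tubule markers were also present: the summed level of 11 thick ascending limb markers was 13668 and 15297 TPM and that of 31 proximal tubule markers 2829 and 2472 TPM in the same libraries. Most of the thick ascending limb sums came from 1 gene, Umod, at 10397 and 11616 TPM. The preparations held tubule RNA beside endothelial RNA.

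In the authors' deposited table of untreated injury against mimic, 2032 of 19841 genes with an adjusted p (10.2%) passed 0.05. Of these, 1282 (6.46%) were higher in untreated injury and 750 (3.78%) were lower, so the larger number of changes were transcripts at a lower level with the mimic. Folds are log2 values, positive where the untreated group was higher. The median fold was 0.02 over all genes tested, 1.67 over the higher genes and -1.44 over the lower ones in the authors' deposited table. Folds above 2 were given by the authors' deposited table for 494 of the higher genes, and folds below -2 for 138 of the lower ones. Protein-coding genes made up 1795 of the calls. Among long noncoding RNAs, 78 were higher and 61 were lower in untreated injury in the authors' deposited table. The median size of the deposited folds was 0.564 standard errors, where the deposited p-values imply 1.05, as with folds shrunken towards 0. A deposited fold near 0 is therefore no measure of likeness, and adjusted p-values are given beside folds.

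**Figure D1:**
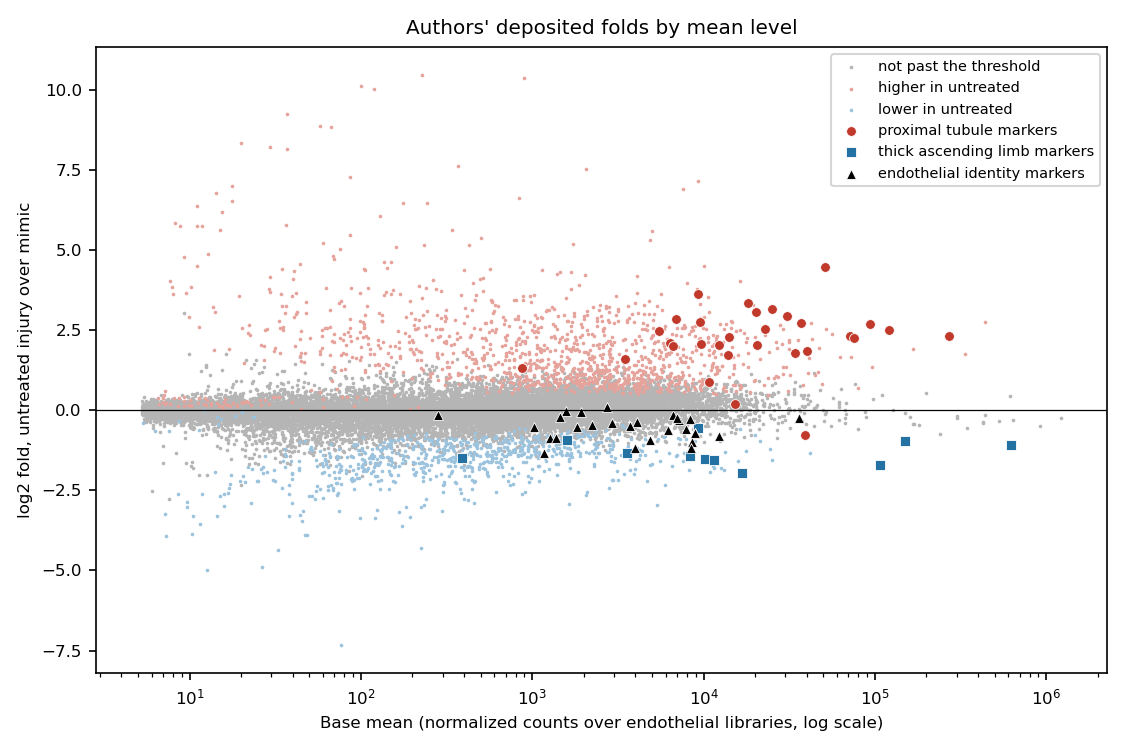
Log2 fold of untreated injury over mimic (vertical) against the authors' base mean (horizontal, log scale), 1 point a gene with an adjusted p. Proximal tubule markers (red circles) lie mostly above 1, up to 4.45, thick ascending limb markers (blue squares) all lie below 0, and endothelial markers (black triangles) lie near or below 0.

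Across 34 gene lists, 111 distinct genes passed the threshold in the authors' deposited table, 80 higher and 31 lower in untreated injury, of 659 with an adjusted p. The share called was highest for the proximal tubule markers, the NRF2 antioxidant genes and the tubule injury genes, which were higher in untreated injury, and for the thick ascending limb markers, which were lower. The endothelial list had 1 call among its 28 members.

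**Figure D2:**
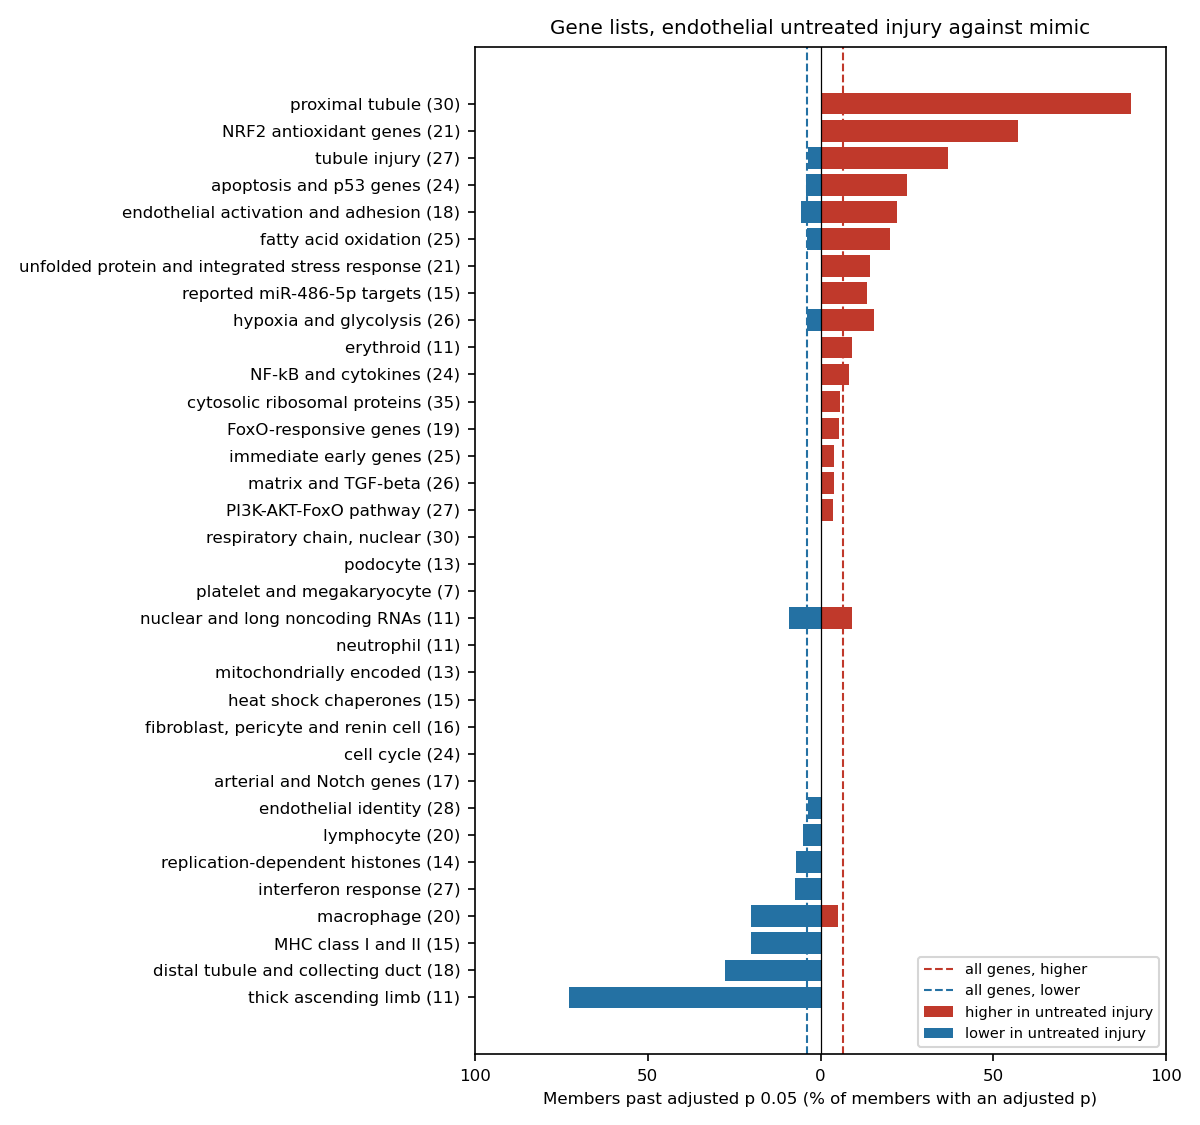
Share of each list's members past an adjusted p of 0.05 in the authors' table of untreated injury against mimic, in percent, higher in untreated injury to the right and lower to the left, with the number of members tested in brackets. Dashed lines mark 6.46% and 3.78%, the shares over all genes.

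Genes of the proximal tubule, the segment that reclaims most filtered solute, were higher in untreated endothelial preparations than in those given the mimic. Of 30 tested markers, 27 were higher and 0 lower in the authors' deposited table, against 6.46% of all genes, with a median log2 fold of 2.30. The largest fold among them was 4.45, for Pck1. Markers that did not pass were Aqp1 at -0.77 (adjusted p = 0.0709), Slc7a13 at 0.86 (adjusted p = 0.131) and Gatm at 0.20 (adjusted p = 0.631) in the authors' deposited table. Aqp1, a water channel, is made by endothelial cells as well as by the proximal tubule. G6pc had no adjusted p there. In bulk samples, fewer cells of a type and less RNA per cell cannot be told apart.

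Pck1 (chromosome 2, 173153048 to 173159273 in GRCm38), the phosphoenolpyruvate carboxykinase that commits carbon to glucose synthesis, had the smallest adjusted p of the markers, at a log2 fold of 4.45 (SE 0.50, adjusted p = 2.28e-16) in the authors' deposited table. Its level was 24.5 and 21.3 TPM in the mimic libraries, 172, 142 and 175 TPM in the scrambled libraries and 154, 41.3 and 44.5 TPM in the exosome libraries. Both mimic libraries lay below all 6 others. Slc5a2, the glucose carrier that gliflozin drugs block, showed a log2 fold of 3.63 (SE 0.91, adjusted p = 0.00019) in the authors' deposited table. It stood at 9.35 and 8.59 TPM with the mimic and at 97.4, 33.2 and 20.6 TPM with scrambled miRNA, while the exosome libraries held 114, 11.8 and 11.4 TPM. Slc22a12, the urate exchanger, had a fold of 3.15 (SE 0.75, adjusted p = 0.000115) and Slc13a3, a dicarboxylate carrier, one of 3.35 (SE 0.80, adjusted p = 9.71e-05) in the authors' deposited table. The phosphate carrier Slc34a1 had a fold of 2.31 (adjusted p = 0.00461) there.

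The same markers were also lower in the mimic preparations than in sham ones, a comparison that crosses the division between series. Untreated injury against sham does not cross it, so these 2 comparisons differ in more than the treatment. In the authors' deposited table of mimic against sham, 29 of 30 tested markers were lower with the mimic (7.63% of all genes were lower there) and 0 higher, with a median of -3.58. In untreated injury against sham, the authors' deposited table held 2 lower markers of 30 and a median of -0.25, where 4.41% of all genes were called and 1.11% were lower. Against scrambled miRNA, 1 of 30 markers was higher in untreated injury (0.344% of all genes) in the authors' deposited table, and this was Pck1, at 1.68 (adjusted p = 0.0067). The authors' deposited table for exosomes also held 1 call of 30, again Pck1, at 2.46 (adjusted p = 5.69e-06). Of all genes, 3.77% were called there, 1.83% higher and 1.95% lower in untreated injury. These tables share libraries, so they are given side by side only. Summed over the 31 markers, the scrambled libraries held 12289.8, 5899.7 and 6406 TPM and the exosome libraries 20238, 3316 and 2288 TPM. Exosome library 1 and scrambled library 1 were the highest, and exosome library 3 lay below both mimic libraries.

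**Figure D3:**
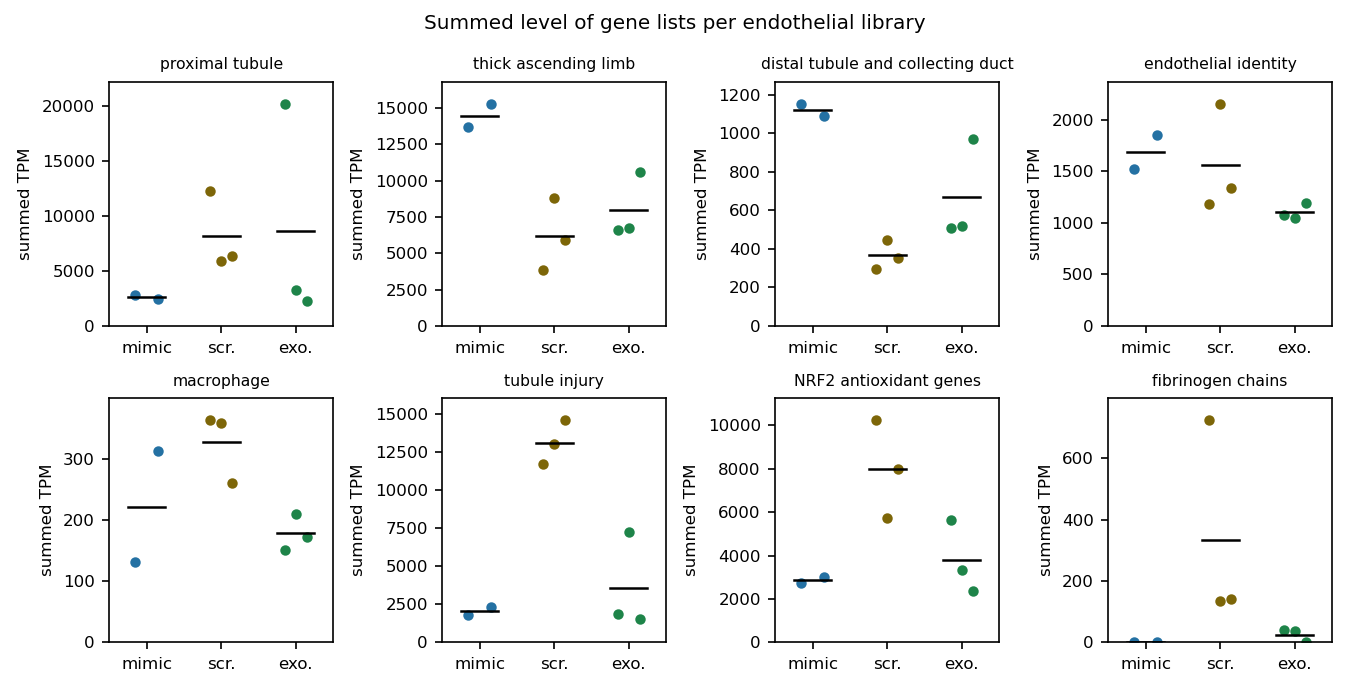
Summed TPM of 8 gene sets in the 2 mimic, 3 scrambled-miRNA and 3 exosome endothelial libraries (1 point a library, line at the mean; untreated libraries have no point). Thick ascending limb sums were highest in the mimic libraries at 13668 and 15297, of which Umod alone made up 10397 and 11616. Exosome library 1 held the highest proximal tubule sum at 20239.

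Several genes that injured tubules switch on were also higher in untreated injury than with the mimic. Of 27 tubule injury genes, 10 were higher and 1 lower in the authors' deposited table (6.46% and 3.78% of all genes), with a median log2 fold of 0.70. Against sham, 22 of 27 were higher in untreated injury, with a median of 2.04, and 7 of 27 were higher with the mimic, with a median of 0.76, by the authors' deposited tables. The shares of all genes that were higher there were 3.3% and 3.93%. Proximal tubule markers moved in the same direction as the injury genes between untreated and mimic, and their part in this result was not tested. Summed over the 27 injury genes, the level was 1776 and 2328 TPM in the mimic libraries, 11727, 13080.4 and 14616 TPM in the scrambled and 1864, 7267 and 1543 TPM in the exosome libraries. All 3 scrambled libraries lay above the other 5.

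Krt20 (chromosome 11, 99428403 to 99438150), a keratin of urothelium and injured tubule, showed a log2 fold of 10.35 (SE 1.86, adjusted p = 2.61e-07) in the authors' deposited table. The mimic libraries held 0 and 0.0221 TPM and the scrambled libraries 6.77, 2.71 and 3.44 TPM, with no overlap. The exosome libraries, at 0.0218, 0.29 and 0 TPM of Krt20, overlapped the mimic libraries. Havcr1 (chromosome 11, 46735080 to 46779578) encodes KIM-1, the phosphatidylserine receptor used as a marker of tubule injury. Its log2 fold was 5.57 (SE 2.17, adjusted p = 0.00242) in the authors' deposited table, and against sham it was 4.86 (adjusted p = 0.00574) in untreated injury and -0.09 (adjusted p = 0.804) with the mimic. Havcr1 stood at 0.113 and 1.35 TPM with the mimic, 259.9, 33.5 and 78.7 TPM with scrambled miRNA and 2.95, 22.4 and 0.631 TPM with exosomes. The scrambled libraries lay above all others, and mimic library 1 was the lowest of the 8. Lcn2 (chromosome 2, 32384633 to 32388252), which encodes the iron-siderophore binding protein NGAL, had a fold of 4.51 (SE 0.87, adjusted p = 2.76e-06) in the authors' deposited table. Its levels were 7.41 and 18.8 TPM in the mimic libraries, 305, 405 and 419 TPM in the scrambled and 19.5, 137 and 12.1 TPM in the exosome libraries. Against sham, Lcn2 was still higher with the mimic in the authors' deposited table, at 1.96 (adjusted p = 0.0245), beside 7.20 (adjusted p = 6.06e-19) in untreated injury. Tnfrsf12a, the TWEAK receptor, had a fold of 2.72 (adjusted p = 0.000264) and Krt8, a keratin of simple epithelia, one of 1.77 (adjusted p = 0.00186) in the authors' deposited table. The gene of the list that was lower in untreated injury was Cdh6, a cadherin, at -1.45 (adjusted p = 0.0182) in the authors' deposited table. Vcam1, an adhesion receptor on endothelium and injured tubule, was at 0.01 (adjusted p = 0.996).

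The 3 fibrinogen chains, made mainly by liver and also by injured tubule, were all higher in untreated injury. The authors' deposited table gave log2 folds of 7.14 (SE 0.94, adjusted p = 2.1e-12) for Fga, 7.54 (SE 1.66, adjusted p = 1.18e-05) for Fgb and 6.91 (SE 1.06, adjusted p = 4.23e-09) for Fgg. Fga (chromosome 3, 83026076 to 83033627) was measured at 0.381 and 0.899 TPM in the mimic libraries and 338, 65.3 and 58.8 TPM in the scrambled libraries, and at 16, 16 and 1.15 TPM in the exosome libraries. Scrambled library 1 was the highest for each of the 3 chains. Against sham, Fga was higher in untreated injury at 3.79 (adjusted p = 6.71e-05) and lower with the mimic at -2.67 (adjusted p = 0.00583), by the authors' deposited tables. Saa1, an acute-phase apolipoprotein, had a fold of 10.03 (SE 4.04, adjusted p = 0.00136) in the authors' deposited table and was listed at 0 TPM in both mimic libraries. Vgf, a secreted neuropeptide precursor, was also listed at 0 TPM in both and had the largest fold of the named genes, 10.44 (SE 3.15, adjusted p = 5.89e-05), in the authors' deposited table. With libraries at 0, the size of such a fold depends on the authors' model. The scrambled libraries held 0.68, 4.08 and 6.12 TPM of Vgf and 11.2, 1.61 and 3.84 TPM of Saa1. The exosome libraries held 0.0177, 1.06 and 0.0808 TPM of Vgf and 2.47, 0.0737 and 0 TPM of Saa1.

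Other genes with the largest positive folds included Lgi2 at 6.47 (adjusted p = 6.18e-15), Fyb2 at 6.47 (adjusted p = 1.32e-08) and Eps8l3, an actin-regulating EPS8 relative, at 6.06 (adjusted p = 1.37e-08) in the authors' deposited table. Slc6a19os, a transcript antisense to the neutral amino acid carrier Slc6a19, had a fold of 10.10 (adjusted p = 0.00207) there. It was listed at 0 TPM in both mimic libraries and all 3 exosome libraries and at 0.214, 0 and 0.261 TPM in the scrambled libraries, so the size of this fold also depends on the authors' model. The strand setting of the counting is not given in the sources used here, so reads of Slc6a19os and of its partner cannot be told apart. Gm3776 at 7.61 (adjusted p = 0.003) and Gsta1 at 6.62 (adjusted p = 3.04e-05) in the authors' deposited table belong to a group of near-identical glutathione transferase genes whose reads may be split between copies, so their separate values are uncertain.

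**Figure D4:**
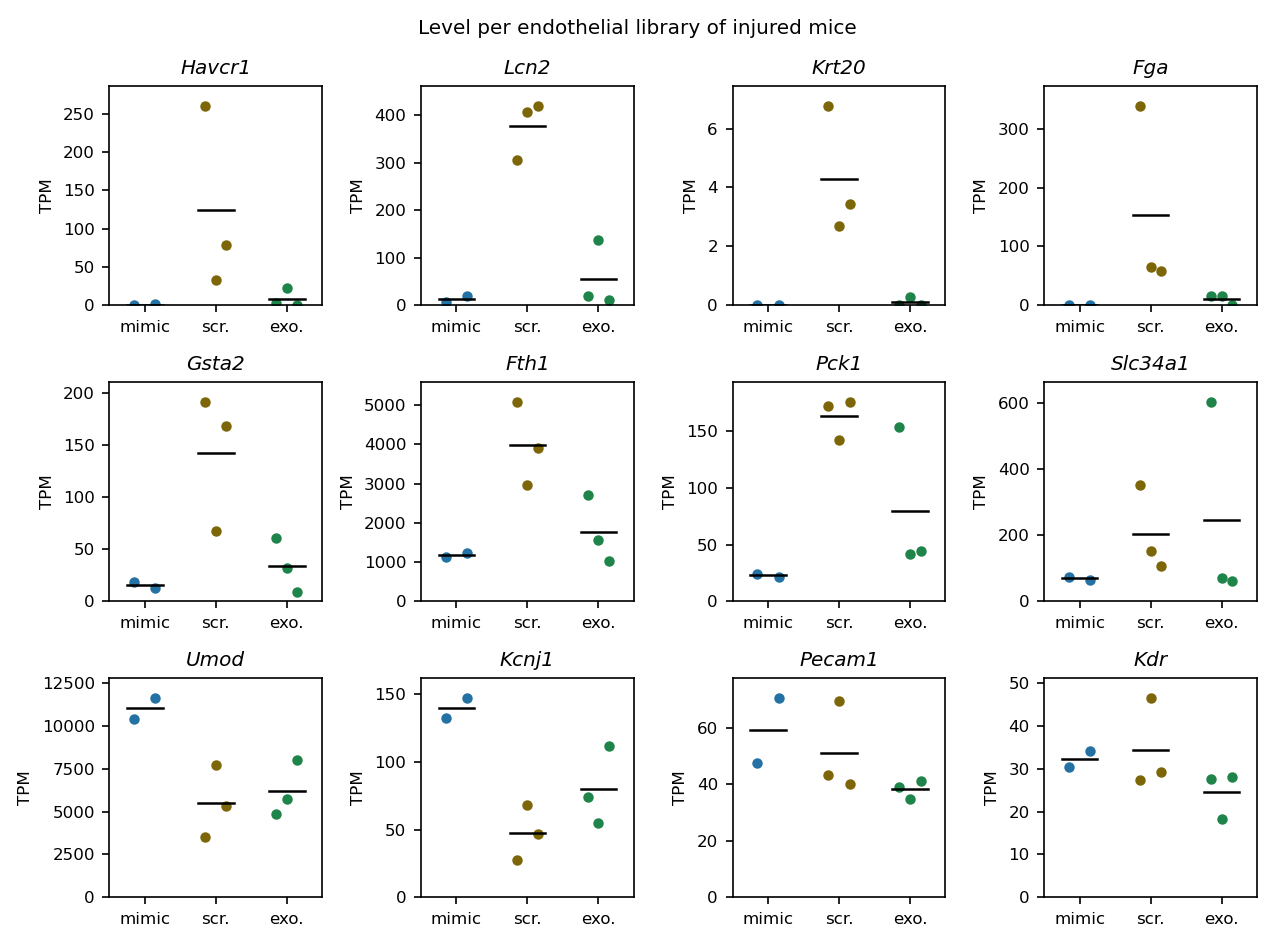
TPM of 12 genes in each mimic, scrambled-miRNA (scr.) and exosome (exo.) endothelial library, with a line at each group's mean and axes from 0. Havcr1, Lcn2, Krt20 and Fga lie higher in all 3 scrambled libraries than in both mimic libraries, Umod and Kcnj1 are highest with the mimic, and the Pecam1 and Kdr groups overlap.

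Most of the listed antioxidant genes under NRF2 were higher in untreated injury than with the mimic. NRF2 is the factor that, when freed from KEAP1, binds antioxidant response elements and raises glutathione synthesis, thioredoxin reduction and iron storage. Of 21 tested members, 12 were higher and 0 lower in the authors' deposited table (6.46% and 3.78% of all genes), with a median log2 fold of 1.35. Gsta2, a glutathione transferase, had a fold of 4.31 (SE 0.76, adjusted p = 3.09e-07), Gsr, the glutathione reductase, 1.78 (SE 0.37, adjusted p = 2.23e-05) and Fth1, the ferritin heavy chain, 1.92 (SE 0.44, adjusted p = 8.45e-05) in the authors' deposited table. Fth1 has many processed copies in the genome, so its reads are uncertain in the same way. Levels of Gsr were 27.4 and 28.4 TPM with the mimic and 85.3, 83.9 and 68.5 TPM with scrambled miRNA, without overlap. The exosome libraries held 63.7, 32.1 and 22 TPM of Gsr, and exosome library 3 lay below both mimic libraries. Keap1, the inhibitor, was at 0.04 (adjusted p = 0.944) and Nfe2l2, which encodes NRF2 itself, at 0.79 (adjusted p = 0.15) in the authors' deposited table. Against sham, 7 of the 21 were higher in untreated injury (3.3% of all genes) and 5 were lower with the mimic (7.63% of all genes) in the authors' deposited tables. Against exosomes, 8 of the 21 were higher in untreated injury (1.83% of all genes) and 0 lower, with a median of 0.88, in the authors' deposited table. The list's summed level was 2761 and 3014 TPM with the mimic and 10242, 5731 and 7989.8 TPM with scrambled miRNA. The exosome libraries held 5625, 3356 and 2389 TPM, and library 3 lay below both mimic libraries. Fth1 alone held 1129 and 1232 TPM of the mimic sums and 5081, 2960 and 3913 TPM of the scrambled sums. Proximal tubule markers moved in the same direction, and their part in this result was not tested.

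The promoters of the NRF2 list were searched for the antioxidant response element core, TGACNNNGC, on both strands, in the 250 bases before to 50 bases after the start of each gene (RefSeq, GRCm38.p6). Among 17 members with a promoter, 6 (35.3%) held it, against 14% of 27025 genes, and among 25 proximal tubule markers 6 (24%) did. A match is a run of letters, not a shown binding site. Of the 6 members with the core, Gclm, Txnrd1 and Srxn1, the sulfiredoxin gene, were higher in untreated injury in the authors' deposited table, and the other 3 did not pass. Those were G6pdx at 0.41 (adjusted p = 0.318), Prdx1 at 0.80 (adjusted p = 0.0856) and Nfe2l2 at 0.79 (adjusted p = 0.15). 2 promoters with the core are printed because both genes were higher in untreated injury and hold the core upstream of the start. They were chosen after their values were seen. Capitals mark the match, which lies on the opposite strand in both. Gclm, the modifier subunit of the enzyme that makes gamma-glutamylcysteine, had a log2 fold of 2.01 (adjusted p = 0.00149) and Txnrd1, the cytosolic thioredoxin reductase, 1.50 (adjusted p = 0.000317) in the authors' deposited table. The matches start 134 bases before the start of Gclm (chr3:122245307-122245606, plus strand) and 92 bases before that of Txnrd1 (chr10:82858956-82859255, plus strand).
Gclm: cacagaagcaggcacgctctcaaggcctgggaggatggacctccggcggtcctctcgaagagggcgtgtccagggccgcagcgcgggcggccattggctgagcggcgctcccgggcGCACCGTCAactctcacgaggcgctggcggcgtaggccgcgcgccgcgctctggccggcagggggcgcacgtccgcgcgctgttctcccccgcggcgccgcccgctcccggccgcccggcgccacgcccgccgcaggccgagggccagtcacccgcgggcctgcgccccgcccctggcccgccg
Txnrd1: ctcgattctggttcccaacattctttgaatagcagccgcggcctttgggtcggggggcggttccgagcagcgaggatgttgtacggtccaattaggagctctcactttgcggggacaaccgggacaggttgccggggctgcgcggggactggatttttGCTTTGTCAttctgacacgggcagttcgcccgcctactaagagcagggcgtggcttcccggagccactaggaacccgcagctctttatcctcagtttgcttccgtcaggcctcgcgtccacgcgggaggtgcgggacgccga

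Markers of the thick ascending limb, the segment that makes uromodulin and reabsorbs salt without water, went the other way. Of 11 markers, 8 were lower in untreated injury than with the mimic and 0 higher in the authors' deposited table, against 3.78% of all genes, with a median log2 fold of -1.42. Wfdc15b at -1.42 (adjusted p = 0.0545), Egf at -0.95 (adjusted p = 0.128) and Cldn10 at -0.54 (adjusted p = 0.223) did not pass. Kcnj1 encodes ROMK, the apical potassium channel of this segment. It had a fold of -1.95 (SE 0.58, adjusted p = 0.00228) in the authors' deposited table and stood at 132 and 147 TPM with the mimic, 28, 68.4 and 46.5 TPM with scrambled miRNA and 73.9, 55.3 and 112 TPM with exosomes. Umod (chromosome 7, 119462711 to 119479282), the gene of uromodulin, had a fold of -1.07 (SE 0.46, adjusted p = 0.0335) in the authors' deposited table. Its mimic libraries held 10397 and 11616 TPM, above the 3505, 7737 and 5339 TPM of the scrambled libraries and the 4850.4, 5735 and 8029 TPM of the exosome libraries. Ppp1r1a, a phosphatase inhibitor, was at -1.53 (adjusted p = 0.00652) and Cldn19, a claudin of the paracellular cation path, at -1.32 (adjusted p = 0.0134) in the authors' deposited table. Against sham, 4 of 11 markers were higher with the mimic (3.93% of all genes) and 0 of 11 were called in untreated injury (4.41% of all genes), by the authors' deposited tables.

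Markers of the distal tubule and collecting duct were lower in untreated injury for 5 of 18 members and higher for 0 in the authors' deposited table (3.78% and 6.46% of all genes), with a median of -0.73. They were Aqp4, Avpr2, Aqp2, Calb1 and Aqp3. Aqp2, the vasopressin-regulated water channel, had a fold of -1.31 (adjusted p = 0.00776) and Avpr2, the vasopressin V2 receptor, -1.61 (adjusted p = 0.00583) in the authors' deposited table. Calb1, the calbindin of the distal convoluted tubule, was at -1.45 (adjusted p = 0.0258) there, with 109 and 95.9 TPM in the mimic libraries and 4.08, 18.3 and 12.3 TPM in the scrambled libraries. Ppp1r1b, a relative of Ppp1r1a, was among the genes with the largest negative folds at -2.95 (SE 0.61, adjusted p = 2.45e-05) in the authors' deposited table. Both mimic libraries, at 151 and 139.7 TPM, lay above the scrambled libraries at 14.6, 50.4 and 25.1 TPM and the exosome libraries at 53.7, 37.5 and 103 TPM.

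Endothelial identity genes mostly did not pass the threshold. Of 28 genes, 1 was lower in untreated injury and 0 higher in the authors' deposited table, near the 3.78% of all genes, with a median log2 fold of -0.52, and 27 of 28 folds were below 0. The gene called was Icam2, a junctional adhesion molecule, at -1.32 (SE 0.61, adjusted p = 0.0337). Pecam1 was at -0.73 (SE 0.46, adjusted p = 0.144) and Kdr, the main VEGF receptor, at -0.79 (SE 0.54, adjusted p = 0.136) in the authors' deposited table. Kdr stood at 30.4 and 34 TPM with the mimic and 27.3, 46.4 and 29.1 TPM with scrambled miRNA, and the groups overlapped. Against sham, 5 of 28 were higher with the mimic (3.93% of all genes), with a median of 0.91, and 0 of 28 were called in untreated injury (4.41% of all genes), by the authors' deposited tables. None of 17 arterial and Notch genes was called in untreated injury against mimic, with a median of -0.52 in the authors' deposited table.

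Activation and adhesion genes gave 4 higher and 1 lower of 18 in the authors' deposited table, where 6.46% of all genes were higher and 3.78% lower, so the single lower call is near the share over all genes. Icam1, the leukocyte adhesion receptor, was higher in untreated injury at 1.43 (SE 0.63, adjusted p = 0.0212) in the authors' deposited table. Its levels were 7.51 and 8.41 TPM with the mimic, 25.1, 13.3 and 14.1 TPM with scrambled miRNA and 6.66, 8.8 and 5.62 TPM with exosomes, so the scrambled libraries lay above the other 5. F3, tissue factor, which starts coagulation, was at 3.28 (SE 0.95, adjusted p = 0.000829) and Cxcl10, a chemokine for T cells, at 1.28 (adjusted p = 0.0496) in the authors' deposited table. Lcn2 was the fourth gene that was higher. The single lower call was Cd34, a sialomucin of capillary endothelium, at -1.17 (adjusted p = 0.0343). Of 24 NF-kB and cytokine genes, 2 were higher and 0 lower in the authors' deposited table, near the share over all genes, among them Bcl3, a nuclear IkB protein, at 2.21 (adjusted p = 0.000969).

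**Figure D5:**
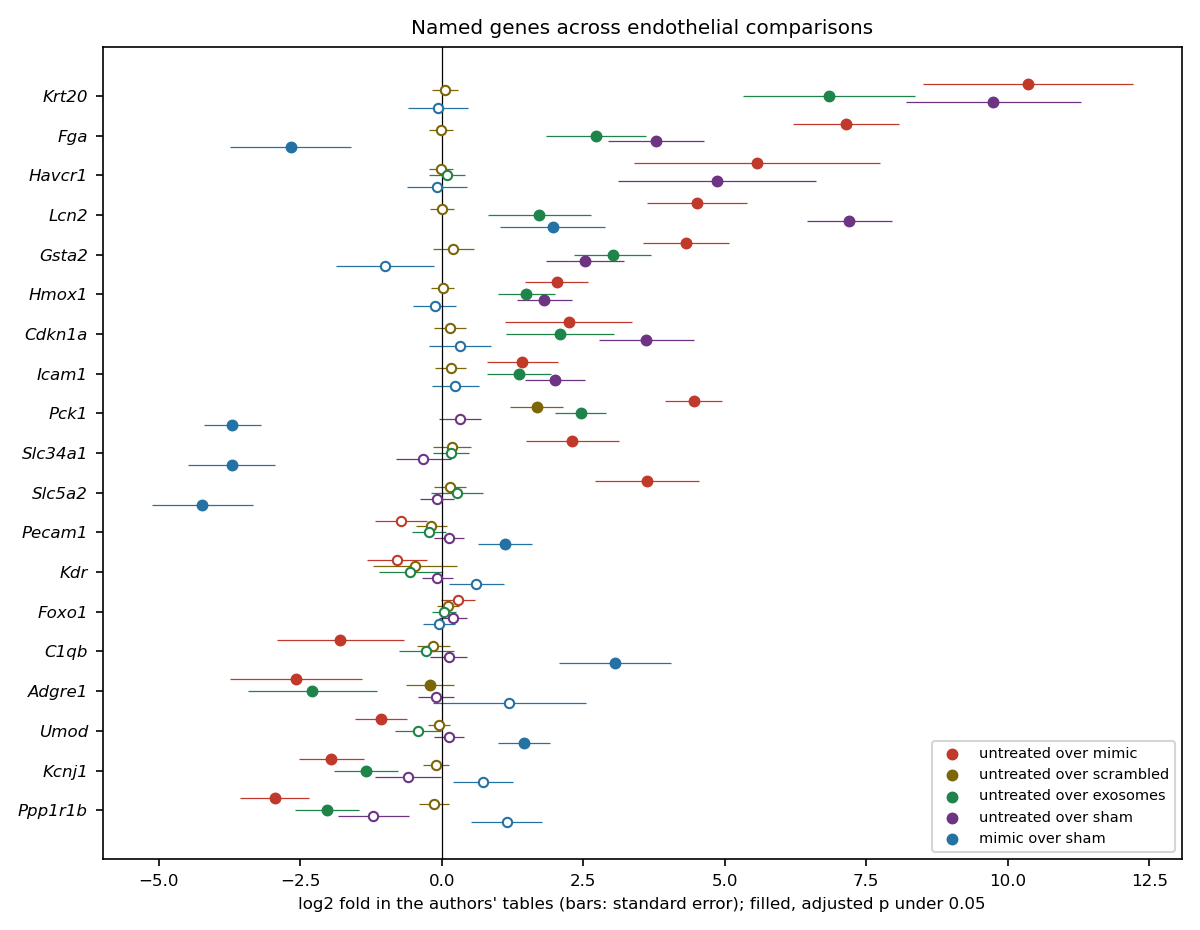
Log2 folds of 19 genes in 5 of the authors' endothelial tables (colours), with bars for the standard error and filled points where the adjusted p is under 0.05. Krt20, Fga, Havcr1 and Lcn2 are filled in untreated over mimic and in untreated over sham, and Pck1, Slc34a1 and Slc5a2 are filled in untreated over mimic and in mimic over sham.

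Macrophage markers were lower in untreated injury than with the mimic for 4 of 20 members and higher for 1, with a median of -0.52 in the authors' deposited table. Of all genes, 3.78% were lower and 6.46% higher there, so the single higher call is near the share over all genes. Adgre1, the gene of F4/80, was at -2.57 (SE 1.16, adjusted p = 0.0189), Aif1 at -2.22 (adjusted p = 0.00782), and C1qb and C1qc, chains of complement C1q, at -1.79 (adjusted p = 0.0485) and -1.52 (adjusted p = 0.0498) in the authors' deposited table. The higher call was Cd14, the lipopolysaccharide co-receptor, at 1.36 (adjusted p = 0.0363). The mimic libraries differed from each other: Adgre1 stood at 3.07 and 10.7 TPM and the summed level of the 20 markers at 131 and 312 TPM, so library 2 was the higher for both. The scrambled libraries held 363, 358 and 259.8 TPM of the markers and the exosome libraries 151, 210 and 172 TPM. Mimic library 2 lay within the scrambled range, and mimic library 1 was the lowest of the 8. Against scrambled miRNA, 2 of 20 markers were lower in untreated injury (0.413% of all genes) and 0 higher. Against exosomes, 2 of 20 were lower (1.95% of all genes) and 1 higher (1.83%), by the authors' deposited tables. Against sham, 16 of 20 macrophage markers were higher with the mimic (3.93% of all genes), with a median of 2.36, and 4 of 20 in untreated injury (3.3% of all genes), with a median of 0.17, by the authors' deposited tables. Itgax, the integrin chain CD11c of dendritic cells and some macrophages, had one of the largest negative folds at -3.13 (SE 0.98, adjusted p = 0.00291) in the authors' deposited table. It was 0.56 and 5.01 TPM in the mimic libraries, the lowest and the highest of the 8, and 1.24, 3.17 and 2.43 TPM in the scrambled libraries.

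Calls among genes of antigen presentation and interferon are set beside 3.78% of all genes lower and 6.46% higher. MHC genes were lower in untreated injury for 3 of 15 members, the class II genes H2-Aa at -1.90 (adjusted p = 0.00342) and H2-Eb1 at -1.62 (adjusted p = 0.0074) and the invariant chain gene Cd74 at -1.73 (adjusted p = 0.00592), in the authors' deposited table. Against exosomes, 3 of 15 were lower in untreated injury (1.95% of all genes), and against sham 3 of 15 (1.11%), by the authors' deposited tables. With the mimic against sham, 0 were higher and 1 lower (3.93% and 7.63%). H2-Aa stood at 51 and 102 TPM with the mimic and 54.1, 77.6 and 27 TPM with scrambled miRNA. H2-Eb1 stood at 1.5 and 2.05 TPM with the mimic and 3.43, 2.84 and 1.07 TPM with scrambled miRNA. The groups overlapped for both. Interferon response genes were lower for 2 of 27, Oas1a and Ifi44. Lymphocyte markers gave 1 lower of 20, Cd3g at -1.97 (adjusted p = 0.0359), in the authors' deposited table. No member was called among 11 neutrophil, 7 platelet, 13 podocyte or 16 fibroblast and pericyte markers in that table. Erythroid markers gave 1 higher of 11, Klf1, an erythroid transcription factor, at 1.70 (adjusted p = 0.00682).

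Reported targets of miR-486-5p gave 2 higher and 0 lower of 15 tested in the authors' deposited table, where 6.46% of all genes were higher, about 1 in 15. The list's median log2 fold was 0.33, beside 0.02 over all genes. Medians of the 34 lists ran from -1.42, over the thick ascending limb markers, to 2.30, over the proximal tubule markers. Among those near the target list were the 11 neutrophil markers at 0.31 and the cytosolic ribosomal proteins at 0.26. For mimic over sham, the target list's median was 0.03 in the authors' deposited table. For mimic over scrambled miRNA, it was -0.14 in the edgeR fit described below. The targets called were Olfm4, a secreted glycoprotein, at 1.84 (SE 0.70, adjusted p = 0.00817) and the collagen chain gene Col6a6 at 1.49 (SE 0.93, adjusted p = 0.042). Olfm4 held 1.16 and 4.07 TPM in the mimic libraries and 17.8, 24.5 and 22.8 TPM in the scrambled ones. Foxo1, a transcription factor that AKT keeps out of the nucleus, had a fold of 0.29 (SE 0.30, adjusted p = 0.499) in the authors' deposited table, and its mimic levels were 2.49 and 2.68 TPM beside 3.48, 2.95 and 2.73 TPM with scrambled miRNA. These are messenger RNA levels, and protein was not measured.

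Downstream of these targets, 1 of 27 PI3K, AKT and FoxO pathway genes was called in the authors' deposited table, Mtor, the growth kinase, at 1.33 (SE 0.47, adjusted p = 0.0075). Among 19 FoxO-responsive genes 1 was called, Cat, the catalase gene, at 1.34 (SE 0.56, adjusted p = 0.0188) in the authors' deposited table. Both shares were below the 6.46% of all genes that were higher. Cell death and p53 genes gave 6 higher and 1 lower of 24, with a median of 0.32, in the authors' deposited table, and 3.78% of all genes were lower, so the single lower call is near that share. Casp8, the initiator caspase of death receptors, was at 1.01 (SE 0.20, adjusted p = 3.28e-05) and Bid, the protein it cleaves, at 1.85 (SE 0.55, adjusted p = 0.00157) in the authors' deposited table. Cdkn1a, the cell cycle inhibitor p21, was at 2.25 (SE 1.13, adjusted p = 0.0179) and Sesn2, a stress-responsive regulator of mTORC1, at 1.07 (adjusted p = 0.0207). The single lower call was Bcl2, which blocks mitochondrial cell death, at -0.98 (SE 0.30, adjusted p = 0.00575) in the authors' deposited table. Against sham, Bid was lower with the mimic at -2.58 (adjusted p = 6.11e-06), and in untreated injury it was at -0.25 (adjusted p = 0.48), by the authors' deposited tables. Levels of Casp8 were 6.89 and 8.18 TPM with the mimic and 15.5, 13.1 and 10.1 TPM with scrambled miRNA, with no overlap. The exosome libraries, at 8.82, 7.29 and 6.05 TPM of Casp8, overlapped the mimic libraries.

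Genes of metabolism and stress gave scattered calls, and lists with 1 or 2 calls are near the 6.46% of all genes that were higher or the 3.78% that were lower. Fatty acid oxidation genes gave 5 higher and 1 lower of 25, with a median of 0.19, in the authors' deposited table. Proximal tubule markers were higher there for 27 of 30, and their part in the 5 higher calls was not tested. Those higher included Ehhadh, an enzyme of peroxisomal oxidation, at 2.46 (adjusted p = 0.000105), and its regulator Ppara at 1.83 (adjusted p = 0.0024). Ppargc1a, the coactivator that drives mitochondrial biogenesis, was lower in untreated injury at -1.11 (adjusted p = 0.0173) in the authors' deposited table. Hypoxia and glycolysis genes gave 4 higher and 1 lower of 26, with Ndrg1 at 2.52 (adjusted p = 0.000214) and Ldha, lactate dehydrogenase A, at 1.01 (adjusted p = 0.0159) in the authors' deposited table. Genes of the unfolded protein and integrated stress response gave 3 higher of 21, among them Asns, asparagine synthetase, at 2.20 (adjusted p = 0.00289) and Trib3 at 2.12 (adjusted p = 0.0131) in the authors' deposited table. Immediate early genes gave 1 higher of 25, Fosl1, an AP-1 subunit, and matrix genes 1 higher of 26, Tgfbr1, a TGF-beta receptor. Cytosolic ribosomal proteins gave 2 higher of 35, Rpl4 and Rpl10, whose processed copies make their counts uncertain. The list of nuclear and long noncoding RNAs gave 1 in each direction of 11, with Gas5 higher at 0.74 (adjusted p = 0.0182) and Neat1 lower at -1.24 (adjusted p = 0.0202) in the authors' deposited table. Replication-dependent histones gave 1 lower of 14, H2bc21. No call fell among 24 cell cycle genes, 15 heat shock chaperones, 30 nuclear genes of the respiratory chain or 13 mitochondrially encoded genes in that table.

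Many of the genes with the largest negative folds are little characterised. Gm45650 at -4.29 (adjusted p = 0.000653), 1110019B22Rik at -3.61 (adjusted p = 8.78e-06), Gm27202 at -3.37 (adjusted p = 4.33e-05) and 6330410L21Rik at -2.97 (adjusted p = 0.00314) were lower in untreated injury in the authors' deposited table. Prdm16os, a transcript antisense to Prdm16, was at -2.92 (SE 0.48, adjusted p = 1.07e-07), and its reads cannot be told apart from those of its partner. Its mimic levels were 12.7 and 12.6 TPM and its scrambled levels 1.58, 3.58 and 1.94 TPM. Reln, the secreted glycoprotein reelin, was at -3.03 (adjusted p = 0.000991), and Zfp423, a zinc finger factor of adipocyte and neural precursors, at -3.32 (adjusted p = 0.00534) in the authors' deposited table. Zfp423 was uneven between the mimic libraries, at 3.75 and 0.487 TPM. Lypd2 at -3.12 (adjusted p = 0.000695), Fcgbp at -3.18 (adjusted p = 0.00085) and Rnf157, a ubiquitin ligase, at -3.01 (adjusted p = 0.000706) complete the set. Rnf157 was also uneven, at 5.47 and 2.1 TPM in the mimic libraries and 8.88, 1.77 and 9.69 TPM in the scrambled libraries.

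Whether the mimic libraries differ from the scrambled-miRNA libraries can be tested on counts per library. In edgeR's quasi-likelihood test over 16316 genes, 0 passed a Benjamini-Hochberg adjusted p of 0.05, and 3176 (19.5%) had an unadjusted p under 0.05. The smallest adjusted p was 0.0545, shared by 177 genes, and 745 genes were under 0.1. DESeq2 on the same 8 libraries called 1248 genes. Leaving out 1 exosome library gave 1321 calls without library 1, 185 without library 2 and 366 without library 3 in edgeR. The count thus moved from 0 in each case, while leaving out a scrambled library gave 0. With the exosome libraries left out of the fit, edgeR called 1494 genes.

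In this fit, log2 folds are mimic over scrambled, so a gene lower with the mimic is negative. Krt20 had a fold of -7.88 (SE 1.41, adjusted p = 0.0545), Fga -7.63 (SE 1.41, adjusted p = 0.0545) and Pck1 -2.66 (SE 0.49, adjusted p = 0.0545) by edgeR. Havcr1 was at -7.20 (SE 1.91, adjusted p = 0.098) and Lcn2 at -4.70 (SE 1.16, adjusted p = 0.0845). In the other direction, Calb1 was at 3.13 (SE 0.59, adjusted p = 0.0545), Avpr2 at 2.48 (SE 0.42, adjusted p = 0.0545) and Prdm16os at 2.60 (SE 0.44, adjusted p = 0.0545) by edgeR. Umod had a fold of 1.15 (SE 0.41, adjusted p = 0.175), Foxo1 -0.04 (SE 0.19, adjusted p = 0.936) and Pecam1 0.18 (SE 0.23, adjusted p = 0.719) by the same test. Median edgeR folds were -1.69 over the proximal tubule markers, -1.19 over the tubule injury genes, -0.95 over the NRF2 genes and 1.30 over the thick ascending limb markers. Some other lists went the opposite way in the authors' deposited table. The macrophage markers had a median edgeR fold of -0.36, lower with the mimic than with scrambled miRNA, beside a deposited median of -0.52, higher with the mimic than in untreated injury. The fatty acid oxidation genes had a median of 0.32 by edgeR, higher with the mimic, beside a deposited median of 0.19, lower with the mimic.

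In tubular cells of the same series, the authors' deposited table of untreated injury against mimic called 4193 of 18329 genes (22.9%). Of all genes, 14.1% were higher and 8.78% lower in untreated injury. This comparison also crosses the division between series, so the series of origin and the treatment cannot be told apart. The titles name the untreated tubular samples PTs and the mimic ones tub, so the label of the preparation differs as well. The endothelial and tubular values are given side by side, and the difference between the cell types was not tested. Tubule injury genes were higher in untreated tubular cells for 25 of 27 members, with a median of 4.39, in the authors' deposited table. Krt20 was at 13.10 (adjusted p = 1.86e-07), Havcr1 at 5.03 (adjusted p = 8.56e-05), Lcn2 at 8.84 (adjusted p = 2.53e-08) and Fga at 4.22 (adjusted p = 1.4e-07) there. Proximal tubule markers, by contrast, were lower in untreated tubular cells for 13 of 31 members and higher for 0, with a median of -0.82, in the authors' deposited table, whereas 27 of 30 were higher in the endothelial preparations. Thick ascending limb markers were higher for 4 and lower for 1 of 10 in the tubular table, with Umod at 2.37 (adjusted p = 0.000371). NRF2 genes gave 8 higher and 2 lower of 21 in tubular cells, with Gsta2 at 1.24 (adjusted p = 0.0327) and Hmox1, the heme-degrading oxygenase, at 2.23 (adjusted p = 2.2e-05) in the authors' deposited table. Foxo1 was at 0.39 (adjusted p = 0.322) in tubular cells and did not pass.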

How the data were processed

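Poly(A) RNA libraries of kidney endothelial cells were read from 2 kinds of deposited file. One kind holds the authors' estimated counts for each transcript, unnormalized, from Salmon 0.13.1 on GRCm38 per the submitters' processing notes. It also holds TPM values that the authors deposited beside the counts, per the file headers. The other kind is a comparison table whose header has DESeq2's column names: log2 folds with standard errors, deposited by the authors, the first-named group over the second. Each gene's p-value and adjusted p-value in it are also as the authors deposited them. Its base mean, a normalized signal over the authors' endothelial libraries, was the same in every endothelial table used.

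Untreated against mimic was read from the authors' table at an adjusted p of 0.05. Estimated counts were summed per gene (GENCODE M21), rounded and tested for mimic against scrambled miRNA with edgeR 4.0.16 (R 4.3.3; filterByExpr with a minimum count of 10 and a minimum total of 15, TMM, quasi-likelihood F test, Benjamini-Hochberg), on 3 scrambled, 3 exosome and 2 mimic libraries in 1 fit. The script was tested on simulated data. Replicates are separate mice only as far as the design text gives n as mice. The 8 libraries held 8273783 to 24118917 reads, and no comparison of depth with the number of libraries was made. Mitochondrial transcripts took 9.08 to 23.8% of the reads, 15.8 and 14.6% of those in the mimic libraries.

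Of 694 list genes, 687 matched the table. Members and gene lists were chosen with earlier results of these data known. Named genes were the 12 largest folds in each direction with a base mean of at least 100, up to 4 called members a list and direction by adjusted p, and 9 set genes, among them Foxo1, Pecam1, Kdr, Umod, Lcn2, Havcr1, Vcam1 and Icam1. Other genes are named where a list's remaining members were few, or, as with Keap1, Nfe2l2, Gclm, Txnrd1, Srxn1, G6pdx, Prdx1, Hmox1 and Slc34a1, for their role or place in the list, after their values were seen. Some genes that the rule names are not reported here. Alternatives covered the threshold, the set of genes adjusted over, the base mean, DESeq2 1.42.0, the count filter, the libraries fitted and the replicate block.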

Additional observations from a re-analysis of the deposited data

How the results depend on the processing

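In the authors' table of untreated injury against mimic, an adjusted p of 0.01 in place of 0.05 left 949 genes, 640 higher and 309 lower. At 0.1 there were 2888 genes, with adjustment over all 25247 genes with a p-value 1788, with a base mean of at least 100 1694, and with a log2 fold of at least 1 in size 1597, each within 1.5 times of 2032. Over the gene lists, 108 of 584 members with a base mean of at least 100 were called, beside 111 of 659, and the count stayed within 1.5 times for 32 of 34 lists; the lymphocyte and erythroid lists each went from 1 call to 0. No library could be left out of the authors' table, since the untreated libraries were used only through it.

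For mimic against scrambled miRNA, edgeR gave 0 calls, DESeq2 1248, edgeR without the low-count filter 2038 and edgeR on mimic and scrambled libraries alone 1494. Leaving out 1 library at a time gave 0 to 1321 calls. All counts above 0 came from leaving out an exosome library, and where 1 mimic library was left the other was assumed to vary like the other groups. With the replicate block edgeR gave 661 calls. Same-numbered libraries did not deviate together throughout: the correlations of their deviations from the group means ran from -0.0114 to 0.241, so the numbers were not taken to pair the samples. The causes of these moves were not tested. The comparison of genes with and without a miR-486-5p seed site, and its alternatives, was not run. With 2 mimic libraries, a change carried by 1 mouse cannot be separated from one carried by the group.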

Other observations

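Gene families grouped by symbol after the values were seen gave further detail on untreated injury against mimic, where 6.46% of all genes were higher and 3.78% lower. UDP-glucuronosyltransferases, which attach glucuronic acid to drugs, bilirubin and steroids, were higher in untreated injury for 14 of 15 tested members and lower for 0, with a median log2 fold of 2.80, in the authors' deposited table. Ugt1a7c was at 4.47 (adjusted p = 7.32e-07) and Ugt2b38 at 2.71 (adjusted p = 0.00177) there. The Ugt1a genes share exons, so their separate values are uncertain. Genes whose symbols begin with Cyp2 gave 11 higher and 2 lower of 29 in the authors' deposited table, with Cyp2a5 at 5.32 (adjusted p = 0.000269). This group takes in Cyp24a1, the hydroxylase that inactivates vitamin D hormone, at 5.18 (adjusted p = 2.32e-06), which is not of cytochrome P450 family 2. Genes whose symbols begin with Cyp4 gave 8 higher and 0 lower of 17 there, with Cyp4a12b at 3.45 (adjusted p = 0.000413). Either group can hold further genes outside families 2 and 4. Summed levels of the glucuronosyltransferases were 81.5 and 78.9 TPM in the mimic libraries, 620.5, 229.7 and 238 TPM in the scrambled and 840.1, 101 and 73.2 TPM in the exosome libraries. Exosome library 1, the highest for proximal tubule markers, was also the highest here. The part of the proximal tubule markers in these counts was not tested.

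Potassium channel genes were lower in untreated injury for 10 of 63 members, beside 3.78% of all genes, and higher for 4 of 63, near the 6.46% of all genes, in the authors' deposited table. Kcnj10 at -1.59 (adjusted p = 0.00219) and Kcnn2 at -1.88 (adjusted p = 0.000123) were lower in untreated injury, whereas Kcnj15 at 3.27 (adjusted p = 0.000136) and Kcnk5 at 2.06 (adjusted p = 0.0054) were higher. All solute carriers together gave 85 higher and 22 lower of 319, with a median of 0.16, in the authors' deposited table. Chemokine genes gave 4 higher and 1 lower of 27, with Cxcl3 at 5.47 (adjusted p = 0.00115) and Cxcl11 at 4.56 (adjusted p = 0.00172).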
